A study of Gallus gallus with 6 samples.

Results

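The genes described here are 22 genes of DNA replication and DNA repair in the magnum, where the oviduct of the hen makes the egg white. They were taken from the 540 genes that the authors listed as changed with laying state, out of 19152 genes counted. Of the 22 genes, 20 were found by words in the gene description (replication, helicase, topoisomerase, minichromosome, ribonucleotide reductase, thymidine, recombination and the like) and 2, GINS2 and CHTF8, by the name alone. The list of the authors was itself made from the contrast of laying against non-laying hens. The difference between these groups is therefore given as a description of the 22 genes, without a test, and nothing is supported with it. RNA was sequenced from 3 laying and 3 non-laying hens of the Hy-line strain (Hy-Line white in the methods of the study), with 1 stranded mRNA library per hen. All laying hens were aged 35 weeks and had an egg in the magnum when sampled. The non-laying hens, aged 35 to 60 weeks, came from different flocks, were picked by outer signs of not laying and had an atrophied oviduct. Age, flock and laying state cannot be told apart in this design.

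A cell copies its genome once in each division. The origin recognition complex loads a ring of MCM proteins onto DNA, other factors turn this ring into an active helicase, and clamp loaders, nucleases and topoisomerases serve the moving fork. Ribonucleotide reductase and thymidine kinase supply the building blocks, and homologous recombination repairs forks that break. In many cell types the genes for these proteins are transcribed mainly in dividing cells. Roles below are those known from human and yeast relatives of the chicken genes.

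Counts per library summed to between 18840068 and 25763750. In the laying hens 1 gene, ENSGALG00000012869, which carries no name in the sources used here, took 49.4% to 53.6% of all counts. In non-laying hens 1, 2 and 3 it took 19.8%, 36.5% and 1.33%, so non-laying hen 3 stood apart. Levels are given below as counts, as CPM (counts relative to a library size that was scaled with TMM, a trimmed mean of log ratios) or as deposited RPKM (reads relative to gene length and library size). Where 3 values follow each other, they are those of hens 1, 2 and 3 of a group. The TMM factors ran from 0.445 to 0.621 in the laying birds against were 1.72, 1.19 and 2.94 in the non-laying birds. A gene with 0 counts could still have up to 3 counts, which is 0.0542 to 0.269 CPM depending on the library, and such limits cover counting error only.

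Most of the 22 genes had few reads in the laying hens, and the highest counts there were those of MCM6, at 86, 125 and 143. The unscaled counts of the 22 genes added up to 491, 595 and 673 in the laying birds against 25785, 14430 and 8802 in the non-laying birds. The TMM-scaled library sizes were 11147960, 16004447 and 14953254 in the laying birds against 39080825, 29678027 and 55345796 in the non-laying birds. The difference is therefore smaller in CPM than in these counts. The number of the 22 genes with 3 counts or fewer was 6, 3 and 1 in the laying hens and 0 in each non-laying hen. Per length, the median gene of the 22 had a percentile rank of 40.0, 36.3 and 40.2 among the RPKM values of all genes in the laying birds. The rank was 78.3, 70.6 and 48.1 in the non-laying birds, so it passed from below to above the middle in hens 1 and 2 and came close to it in hen 3. The magnum is a mixture of cells, and fewer cells of a type and less RNA per cell cannot be told apart in these libraries.

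**Figure D1:**
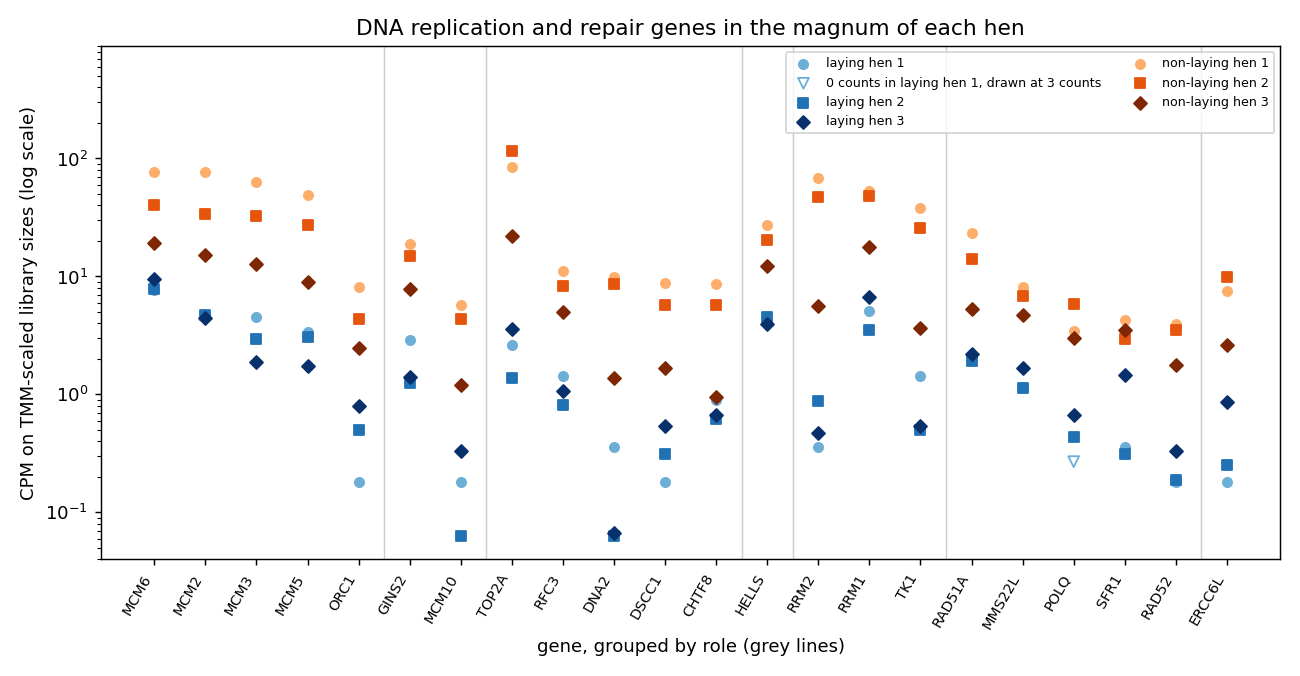
CPM on TMM-scaled library sizes (log axis) of the 22 genes in each of the 6 hens, 1 point per hen, with genes grouped by role between grey lines and the open triangle marking 0 counts of POLQ in laying hen 1. The 3 laying hens (blue) lie below the 3 non-laying hens (orange to brown) for every gene, and the gap is narrowest for CHTF8, where non-laying hen 3 had 0.958 CPM and laying hen 1 had 0.897 CPM.

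The 5 genes of origin licensing were low in every laying hen, and 4 of them encode subunits of the MCM ring. MCM2 (ENSGALG00000006037, chromosome 12, 9749558 to 9760977 in Galgal 5.0) encodes a subunit that also serves as a chaperone of histones at the fork and had 4.75, 4.75 and 4.41 CPM in the laying birds against 77.4, 33.9 and 15.3 CPM in the non-laying birds. The laying hens were nearly alike, whereas the non-laying hens spread widely and fell in the order 1, 2, 3. MCM6 (chromosome 7, 30817925 to 30831254) encodes another subunit and had 7.71, 7.81 and 9.56 CPM against 76.6, 40.5 and 19.1 CPM. MCM3 (chromosome 3, 108001150 to 108010607), a further subunit, had 4.57, 2.94 and 1.87 CPM against 63.8, 32.4 and 12.7 CPM. MCM5 (chromosome 1, 52144221 to 52165309), which also belongs to the ring, had 3.41, 3.06 and 1.74 CPM against 49.0, 27.2 and 9.02 CPM. In CPM the order of the non-laying hens was the same for these 4 subunits. Without scaling, hen 2 was the lowest for MCM2 and MCM6 and hen 3 for MCM3 and MCM5. ORC1 (chromosome 8, 24455444 to 24470668), the largest subunit of the origin recognition complex, was rarer, with 0.179, 0.500 and 0.803 CPM against 8.16, 4.35 and 2.46 CPM. ORC1 was the only gene of the 22 with estimated counts that were not whole. MCM4 and MCM7, which complete the ring, could not be matched by name to an identifier and were not analysed.

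Per length, the 4 ring subunits MCM2, MCM3, MCM5 and MCM6 stood close together in non-laying hens. The highest of the 4 RPKM values was 1.18, 1.30 and 1.46 times the lowest in non-laying hens 1, 2 and 3. In laying hens the same ratio was 1.62, 2.66 and 4.89 in hens 1, 2 and 3. MCM6 had the highest RPKM of the 4 in every hen of both groups. This depended in part on the lengths behind the RPKM. By counts per exon base, MCM2, MCM3 and MCM5 were 1.17, 1.05 and 1.04 times MCM6 in non-laying hen 1. In laying hen 3 they were 0.534, 0.248 and 0.296 times MCM6. MCM6 was also the gene with the highest RPKM of all 22 in each laying hen, at 0.968, 1.43 and 1.61 RPKM. The share of MCM3 in the counts of MCM3 and MCM6, which does not depend on how libraries are scaled, showed the same. It was 37.2%, 27.3% and 16.4% in the laying birds against 45.4%, 44.5% and 39.9% in the non-laying birds. The 95% Wilson interval was 11.6% to 22.6% in laying hen 3 and 37.7% to 42.2% in non-laying hen 3, so these intervals did not overlap. In laying hen 1 it was 29.6% to 45.6%, which overlapped with those of all 3 non-laying hens.

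Both genes of origin firing were low in laying hens. GINS2 (chromosome 11, 17862092 to 17866489) encodes a subunit of the GINS complex, which joins the MCM ring to form the active helicase. It had 2.87, 1.25 and 1.40 CPM in the laying birds against 19.0, 15.0 and 7.84 CPM in the non-laying birds. MCM10 (chromosome 1, 6714748 to 6729461), which activates the helicase and does not belong to the ring, was near the limit of detection in laying hens, with 2, 1 and 5 counts. In non-laying hens 1, 2 and 3 it had 225, 130 and 66 counts. Per length, GINS2 reached 16.7 ± 5.13 RPKM (SD, n = 3) in non-laying hens and MCM10 2.18 ± 1.16 RPKM (SD, n = 3).

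Of the 5 genes that serve the fork, TOP2A had the most counts in every hen. Per length it was the highest of the 5 in the non-laying hens only. In the laying hens it had 0.180, 0.143 and 0.375 RPKM, and CHTF8 had 0.423, 0.412 and 0.425 RPKM. TOP2A (ENSGALG00000003922, chromosome 27, 4838538 to 4857184) encodes topoisomerase II alpha, which unlinks the copied strands and is also needed to part chromosomes in mitosis. Its CPM was 2.60, 1.37 and 3.61 in the laying birds against 84.1, 116 and 22.1 in the non-laying birds. Here non-laying hen 2, not hen 1, was the highest. DNA2 (ENSGALG00000004037, chromosome 6, 10593818 to 10608366), a nuclease and helicase that trims flaps and resects broken ends, had 4, 1 and 1 counts in the laying birds against 388, 257 and 76 in the non-laying birds. RFC3 (chromosome 1, 173886194 to 173899986), a subunit of the clamp loader, had the smallest spread between non-laying hens of the 5, with 1.44, 0.812 and 1.07 CPM against 11.2, 8.26 and 4.95 CPM. DSCC1 and CHTF8 belong to a clamp loader that acts in the cohesion of sister chromatids. DSCC1 (chromosome 2, 136781578 to 136791544) had 0.179, 0.312 and 0.535 CPM against 8.75, 5.73 and 1.68 CPM. CHTF8 (chromosome 11, 19157097 to 19158770) had 10 counts in each laying hen and 338, 169 and 53 counts in non-laying hens 1, 2 and 3. On the CPM scale non-laying hen 3, at 0.958, was 1.07 times the highest laying hen, at 0.897, which is the narrowest gap of the 22 genes.

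The genes of nucleotide supply included the one with the largest difference between the groups. RRM2 (ENSGALG00000016442, chromosome 3, 96931859 to 96936929) encodes the small subunit of ribonucleotide reductase and had 4, 14 and 7 counts in the laying birds against 2668, 1386 and 312 in the non-laying birds. Its CPM was 0.359, 0.875 and 0.468 against 68.3, 46.7 and 5.64. The lowest non-laying hen was still 6.44 times the highest laying hen in CPM, the widest gap of the 22 genes. RRM1 (ENSGALG00000017350, chromosome 1, 194676693 to 194694707), the large subunit, had 5.11, 3.50 and 6.75 CPM against 53.3, 48.1 and 17.9 CPM. TK1 (ENSGALG00000007191, chromosome 18, 9953831 to 9956590), which phosphorylates thymidine, had 1.44, 0.500 and 0.535 CPM against 37.9, 25.8 and 3.65 CPM. RRM2 and TK1 thus dropped far more between non-laying hens 2 and 3 than RRM1 did.

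The subunits of ribonucleotide reductase were not in 1 ratio across hens. In RPKM, RRM2 was 0.113, 0.420 and 0.114 times RRM1 in the laying birds against 2.23, 1.81 and 0.526 times RRM1 in the non-laying birds. RRM2 was the gene with the highest RPKM of the 22 in non-laying hens 1 and 2, at 63.7 and 30.5 RPKM, and RRM1 in hen 3, at 16.6 RPKM. As a share of the counts of both subunits, RRM2 made up 6.56%, 20% and 6.48% in the laying birds against 56.2%, 49.3% and 24.0% in the non-laying birds. The Wilson interval of non-laying hen 3 was 21.8% to 26.4% and that of laying hen 2 was 12.3% to 30.8%, so the lowest non-laying and the highest laying hen were not separated at this depth. The intervals of non-laying hens 1 and 2, 54.8% to 57.6% and 47.4% to 51.1%, lay above those of all other hens.

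**Figure D2:**
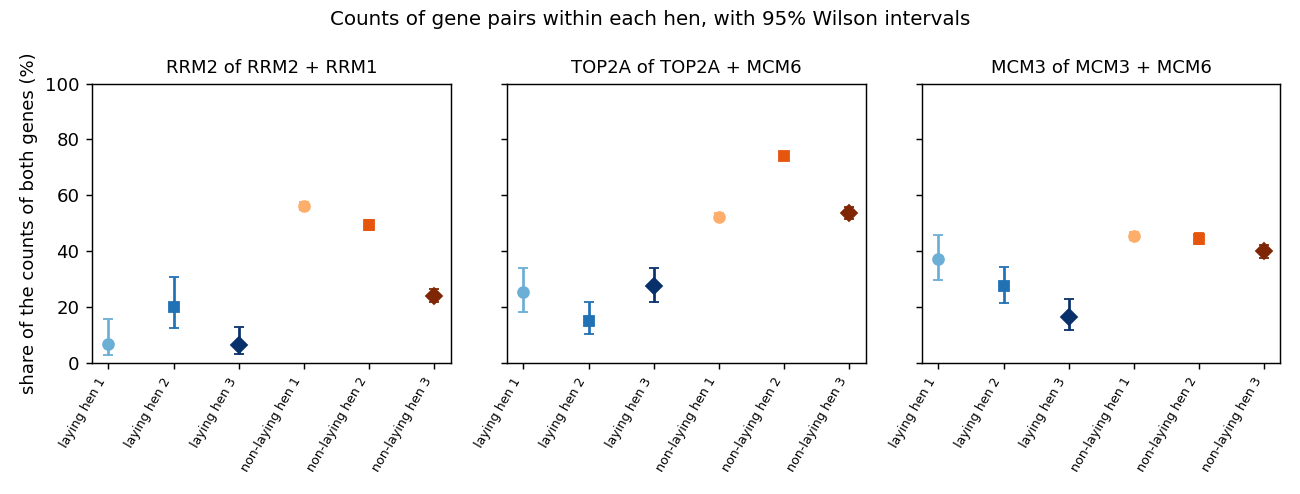
Share of 1 gene in the summed counts of a gene pair (%), 1 point per hen with 95% Wilson intervals that cover counting error only. RRM2 falls from 56.2% of its pair in non-laying hen 1 to 24.0% in non-laying hen 3, TOP2A stands highest in non-laying hen 2 at 74.1%, and MCM3 is lowest in laying hen 3 at 16.4%.

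The 5 genes of recombination and repair differed among themselves in how far the non-laying hens spread. RAD51A (chromosome 5, 907507 to 914989), the recombinase that pairs a broken strand with its homologue, was the most abundant of them. It had 2.06, 1.94 and 2.21 CPM in the laying birds against 23.4, 14.1 and 5.29 CPM in the non-laying birds. RAD52 (chromosome 1, 60605354 to 60617652), which anneals single strands, had 2, 3 and 5 counts against 154, 104 and 99 counts. POLQ (chromosome 1, 79422423 to 79478850), the polymerase of end joining at short repeats, had 0, 7 and 10 counts against 134, 175 and 167 counts. POLQ had the lowest RPKM of the 22 genes in each non-laying hen, at 0.752, 0.896 and 1.13 RPKM. MMS22L (chromosome 3, 72689670 to 72775816), which loads the recombinase at stalled forks, had 1.17, 1.12 and 1.67 CPM against 8.14, 6.87 and 4.72 CPM. SFR1 (chromosome 6, 24194194 to 24197694), a partner that stimulates the recombinase, had 0.359, 0.312 and 1.47 CPM against 4.30, 2.97 and 3.49 CPM. Laying hen 3 was the highest laying hen for each of these 5 genes, and for SFR1 it lay well above hens 1 and 2.

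SFR1 and RAD51A took different shares in hens 3 of both groups. SFR1 made up 14.8%, 13.9% and 40.0% of the counts of SFR1 and RAD51A in the laying birds against 15.5%, 17.4% and 39.7% in the non-laying birds. The Wilson interval of non-laying hen 3, 35.5% to 44.1%, lay above those of the other non-laying hens, while that of laying hen 3, 28.1% to 53.2%, just overlapped with those of laying hens 1 and 2. The study describes no pairing of hens with the same number across the groups.

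HELLS and ERCC6L are helicase relatives with tasks outside the fork. HELLS (chromosome 6, 16489304 to 16504200), a chromatin remodeller needed for DNA methylation of repeats, had 4.04, 4.50 and 3.95 CPM in the laying birds against 27.5, 20.6 and 12.3 CPM in the non-laying birds. The laying hens lay close together, and HELLS had the second highest mean RPKM of the 22 genes there, 0.976 ± 0.211 RPKM (SD, n = 3), after MCM6 with 1.34 ± 0.331 RPKM (SD, n = 3). ERCC6L (chromosome 4, 1683333 to 1687408), which acts on DNA threads between parting chromosomes in mitosis, had 2, 4 and 13 counts in the laying birds against 292, 294 and 146 counts in the non-laying birds.

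All 22 genes had enough counts to be fitted with edgeR's quasi-likelihood model, which was run on 12499 genes. The median fitted log2 fold change, laying over non-laying, was -3.33 for the 22 genes and 0.00352 for all genes fitted. It ran from -6.09 (standard error 0.94) for RRM2 to -2.27 (standard error 0.33) for HELLS, or from 68.3-fold to 4.83-fold lower in laying hens. After RRM2 the largest were those of DNA2 at -5.45 (standard error 0.97), TOP2A at -4.87 (standard error 0.66), TK1 at -4.82 (standard error 0.88) and MCM10 at -4.27 (standard error 0.80). In DNA2 and MCM10 the size rests on 1 to 5 counts per laying hen. The genes nearest to the 3-fold threshold of the authors' list, which is 1.58 on the log2 scale, were HELLS, SFR1 at -2.30 (standard error 0.61) and MMS22L at -2.31 (standard error 0.37). Genes just outside that list carry no name in the sources used here and were not analysed.

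**Figure D3:**
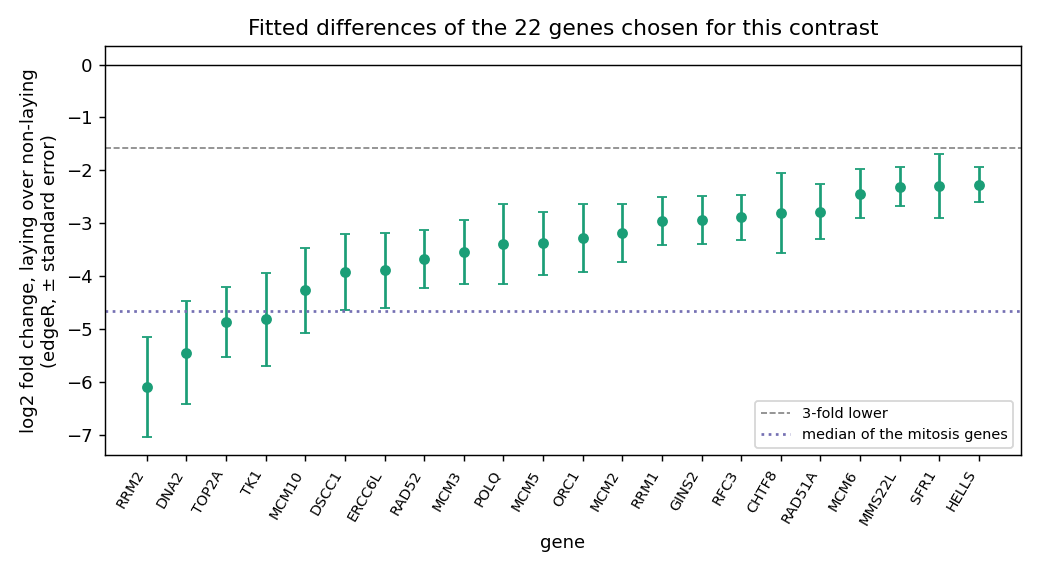
Fitted log2 fold change, laying over non-laying, of each of the 22 genes with its standard error (edgeR, 3 hens per group). The genes run from RRM2 at -6.09 to HELLS at -2.27, all below the dashed line at 3-fold lower, and the dotted line marks the median of 21 mitosis genes at -4.65.

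The thresholds of the study, more than 3-fold and under 0.05 for the p adjusted by Benjamini-Hochberg, were passed in edgeR by 20 of the 22 genes as lower in laying hens. Of all genes fitted, 4.98% passed, 3.70% as lower and 1.28% as higher. SFR1 and CHTF8 did not pass. All 22 had every laying hen below every non-laying hen in CPM, where 17.6% of all genes fitted had. Since the 22 genes were taken from a list made by these thresholds on these libraries, nothing is read from either count. The count of 20 fell to 0 without laying hen 1 and to 0 without laying hen 2. All 22 genes had an unadjusted p under 0.05 in edgeR in both cases, as had 2410 of 13053 and 2506 of 13022 genes fitted. The choice of the 22 genes on these libraries favours this, so nothing is read from it. Over all genes fitted, the number passing fell from 623 to 20 and 16, so calls were lost in general. Without non-laying hen 1 the count was 13 of the 22 genes and 285 over all genes. Without non-laying hen 3, which stood apart, 21 of the 22 genes passed and 563 over all genes. The median log2 fold change of the 22 genes was then -3.58.

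The variation between the non-laying hens is given as a description, since the p-values behind the list of the authors depend on the spread within groups. The SD of log2 CPM over the non-laying hens had a median of 1.04 among the 22 genes and was over 1 for 11 of them. The same median was 0.69 for the 384 genes that the authors listed as lower in laying hens and that were fitted here, and 0.36 for all genes fitted. It was 0.98 for 21 mitosis genes and 0.88 for 16 other genes of replication and repair, both described below. A wide spread was thus not particular to the 22 genes. RRM2 (1.93), TK1 (1.80) and CHTF8 (1.63) had the largest SD, and SFR1 (0.26), MMS22L (0.40) and POLQ (0.50) the smallest. Among the roles with 2 or more genes, those of nucleotide supply and of the fork had the largest median SD, 1.80 and 1.27, and those of recombination and repair the smallest, 0.50.

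Non-laying hen 1 had the highest CPM of the 3 for 19 of the 22 genes, and TOP2A, ERCC6L and POLQ were highest in hen 2. Without scaling of the libraries hen 1 was the highest for 20 genes and hen 3 for 2. Non-laying hen 3 was the lowest for 21 genes, the exception being SFR1, but without scaling it was the lowest for 12 and hen 2 for 9. The count for hen 3 therefore changed more with the scaling than that for hen 1. Over all 12499 genes fitted, hen 1 was the highest for 3406 and hen 3 the lowest for 5170. Without scaling, hen 1 was the highest of all fitted genes for 1442, and hen 3 was the lowest for 696 and the highest for 10744. The median log2 CPM of the 22 genes was 3.87, 3.57 and 2.29 in non-laying hens 1, 2 and 3 and 0.45, -0.13 and 0.38 in laying hens 1, 2 and 3.

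Genes of mitosis, which act after replication in a dividing cell, differed from most of the 22 genes in the order of non-laying hens 1 and 2. Of a textbook list of 34 such genes, 21 were matched by symbol to an identifier. Only genes in the list of the authors carry a name here, so all 21 are in that list by construction. ECT2, CCNB3, KIF4A and CENPE are on the textbook list, and the study names them among its most lowered genes. Their symbols were not matched, so they are missing from the 21. Non-laying hen 2 had the highest CPM for 20 of the 21 matched genes, MAD2L1 being the exception, and without scaling for 12. Over all 12499 genes fitted it was the highest for 3753, and without scaling for 313. Non-laying hen 3 had the lowest CPM for all 21 mitosis genes, as for 21 of the 22 genes. Without scaling it was the lowest for 15 of the mitosis genes. A change of scaling shifts both groups of genes nearly alike, so it hardly alters how far they stand from each other within a hen. The log2 CPM of hen 1 minus that of hen 2 ran from -0.77 (POLQ) to 1.19 (MCM2) over the 22 replication and repair genes, with a median of 0.48 and 19 above 0. Over the mitosis genes it ran from -1.21 (KIF11) to 0.22 (MAD2L1), with a median of -0.67 and 20 below 0. Besides POLQ, TOP2A at -0.46 and ERCC6L at -0.40 were below 0, and RRM1 at 0.15, RAD52 at 0.17 and DNA2 at 0.20 also lay within the range of the mitosis genes. With 1 hen at each point, this difference between hens has no replicate check.

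**Figure D4:**
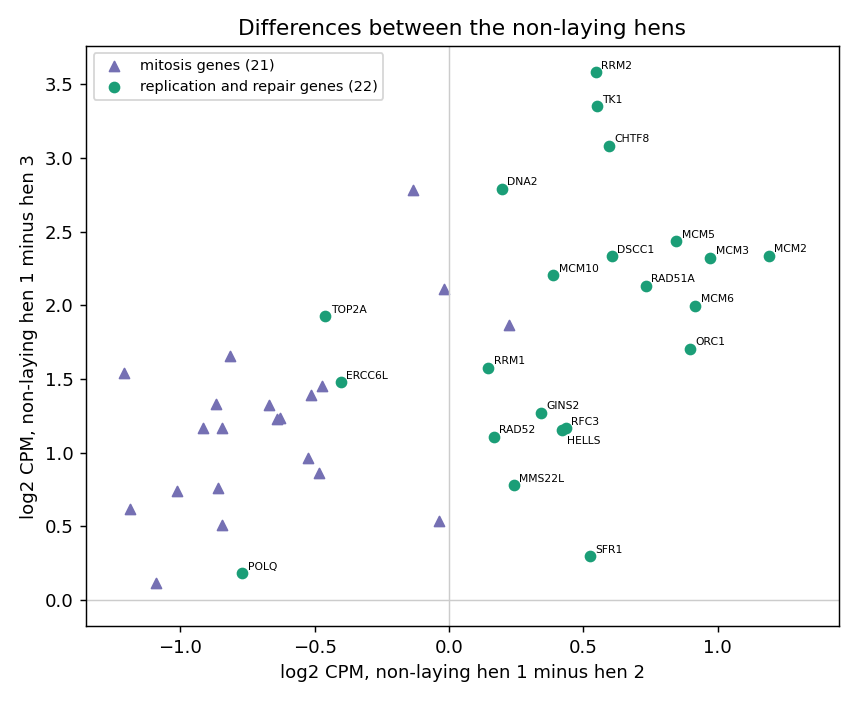
Difference in log2 CPM between non-laying hens 1 and 2 (x axis) and between non-laying hens 1 and 3 (y axis), 1 point per gene, for the 22 replication and repair genes (circles, named) and 21 mitosis genes (triangles). On the x axis 19 of the circles lie above 0 and 20 of the triangles below 0, and POLQ, TOP2A and ERCC6L lie on the side of the triangles.

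The counts of TOP2A and MCM6 were also set side by side within each hen, where scaling cancels, a pair picked after the values above were seen and no further support for them. TOP2A made up 52.3% (51.1% to 53.6%), 74.1% (72.8% to 75.3%) and 53.6% (51.5% to 55.6%) of the counts of both genes in non-laying hens 1, 2 and 3, so hen 2 stood apart beyond counting error. In the laying hens the share was 25.2%, 15.0% and 27.4%. The median log2 CPM of the 22 genes was above that of the mitosis genes by 1.16, 1.03 and 0.36 in laying hens 1, 2 and 3. In non-laying hens 1, 2 and 3 the difference was -0.18, -1.11 and -0.52, and in hen 1 it turned to 0.075 with means in place of medians and to 0.45 on the scale of log2(RPKM + 0.1).

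The deposited RPKM values do not use 1 length per gene. For 13 of the 22 genes the length implied by counts and RPKM was the same share of the exon length to within 1 percentage point in every library with at least 8 counts, and for 9 genes it was not. RPKM ratios between genes were therefore also computed from counts per exon base. For RRM2 over RRM1 these were 0.121, 0.432 and 0.120 in the laying birds against 2.22, 1.68 and 0.546 in the non-laying birds, close to the ratios of RPKM.

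Other genes of the pathway were taken from a textbook list of 175 genes of replication and repair. Of these, 35 were matched by name to an identifier, 19 of them among the 22 genes, so 16 were left. All 16 are in the list of the authors by construction, since only genes in it carry a name here. In edgeR 14 of the 16 passed both thresholds as lower in laying hens, where 3.70% of all genes fitted did, and 0 as higher, where 1.28% did. All 16 were lower, with a median log2 fold change of -3.14. Nothing is read from these counts, since the 16 genes come from the list of the authors as well. Of all 35 listed genes matched by name, 32 passed as lower. In edgeR 0 did so without laying hen 1 or without laying hen 2, and 19 without non-laying hen 1. The number passing over all genes fell from 623 to 20, 16 and 285 in the same fits. CCNE2 and CCNA2, cyclins that drive entry into and passage through replication, did not pass. CDC45, which completes the helicase with GINS and the MCM ring, had 9, 8 and 9 counts in the laying birds against 361, 348 and 164 in the non-laying birds. LIG1, the ligase that joins Okazaki fragments, had 21, 22 and 26 counts against 719, 435 and 212. TYMS, thymidylate synthase, had 20, 29 and 52 counts against 939, 484 and 427. These counts are not scaled. In CPM the lowest non-laying hen was 3.67 (CDC45), 2.03 (LIG1) and 2.22 (TYMS) times the highest laying hen. CHEK1, the kinase of the replication checkpoint, had 4, 22 and 23 counts against 539, 237 and 230. EXO1, a nuclease of resection and mismatch repair, had 1, 0 and 2 counts against 184, 99 and 27. DONSON, a factor of helicase assembly, had 11, 15 and 16 counts against 144, 94 and 257. It was the only one of the 16 with the highest CPM in non-laying hen 3. The others past both thresholds lay between -4.66 and -1.94 in log2 fold change. MTBP, WDHD1 and CDC7, which help to switch the helicase on, were at -4.66, -4.33 and -4.02, and CDK2, the kinase of S phase entry, was at -2.08. CLSPN, which links the fork to the checkpoint, was at -3.48 and ATAD5, which unloads the clamp, at -1.94. BARD1, a ubiquitin ligase partner in recombination, was at -3.45 and UHRF1, which guides DNA methylation after the fork, at -2.14. No gene listed under mismatch repair, base excision repair, nucleotide excision repair or end joining could be matched by name, so none was analysed. EXO1 was not placed under mismatch repair, and POLQ not under end joining.

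Markers of the cell types in the magnum could be checked only in part, since 4 of 72 listed markers were matched by name. All 4 are in the list of the authors by construction. AVD, the gene of the egg-white protein avidin, stood in the list under tubular gland cells. The study does not assign avidin to these cells, so AVD is not read here as a measure of them. AVD had 2001, 1611 and 839 CPM in the laying birds against 2.38, 2.26 and 3.04 CPM in the non-laying birds. Every laying hen was thus far above every non-laying hen, where AVD still had 6.97, 4.58 and 15.2 RPKM. COL3A1, a collagen of fibroblasts, had 234, 258 and 253 CPM against 1966, 1371 and 958 CPM. LUM, the fibroblast proteoglycan lumican, had 19.6, 21.7 and 18.3 CPM against 81.1, 56.9 and 75.0 CPM. CCDC39, a gene of motile cilia, had 2.96, 5.94 and 9.70 CPM against 18.1, 22.1 and 33.0 CPM. The 3 last markers were lower in laying hens, as the 22 genes were, and AVD was higher. Among the non-laying hens COL3A1 fell in the order 1, 2, 3 in CPM, as most of the 22 genes did. Without scaling COL3A1 was lowest in hen 2, so this order depended on the scaling. LUM was lowest in hen 2 and CCDC39 highest in hen 3 with and without scaling. The part of such cells in the differences between groups or hens was not tested.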

How the data were processed

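Single-end reads of 76 bp were trimmed by the authors in Prinseq and mapped in Array Studio to the Galgal 5.0 assembly, with genes from Ensembl release 94. The deposited estimated counts (expected counts) carry no normalization. Between 5.84% and 8.69% of the values in a library were fractions, and all were rounded here. The RPKM values were computed by the authors and used as deposited. The authors' table of 540 genes holds a signed fold change (a score), p-values and their adjusted values from DESeq2, and a signal per group, the authors' mean of normalized counts. The deposited table served only to find genes, names and coordinates, and none of its fold changes, p-values or means was used.

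A gene carries a name here only if the published gene list of the study or the deposited table gives one for its identifier. Both hold only genes that the authors listed as changed, so genes outside that list could not be matched. Apart from the 22 genes, listed symbols were matched to these names exactly, so a listed gene named otherwise there was missed. The 22 genes and all lists were chosen with earlier results of these data known. Values in every hen were given for the most abundant genes of each role, for those with the largest and smallest fitted change and for those with the largest spread over non-laying hens, and here all 22 are accounted for. All 16 other genes of the pathway that were matched are named, 6 of them with values per hen.

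Rounded counts were filtered with filterByExpr, which left 12499 of 19152 genes, scaled by TMM and fitted on all 6 libraries without covariates (the methods of the study name none) by the quasi-likelihood functions of edgeR 4.0.16 (glmQLFit, then a two-sided glmQLFTest) under R 4.3.3. CPM were computed on the scaled library sizes, with a prior count of 2 for log2 CPM. The smallest total of 18840068 counts limits the precision of low genes. A standard error is the log2 fold change divided by the root of F. Shares within gene pairs carry 95% Wilson intervals, computed with Python 3.11.15, which cover counting error only. The gene pairs were not among the results planned in advance, so their intervals describe single hens and are no test. Tested on simulated data with 200 of 12454 genes changed 6-fold, the fit recovered 200 with 0 false calls. The simulation changed only well-counted genes, up and down in equal number. It gave all genes 1 fixed spread between hens and both groups 1 shared composition, unlike these libraries. It therefore checks that the fit runs properly and says nothing about genes with few counts or about the scaling. Alternatives were DESeq2 1.42.0, its size factors in edgeR, limma 3.58.1 on log2(RPKM + 1) or log2(RPKM + 0.1), no scaling, scaling without the 20 most abundant genes, other filters and thresholds, each hen left out and the replicate number as a block. A search of promoter motifs was not run, as no sequences were used here.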

Additional observations from a re-analysis of the deposited data

How the results depend on the processing

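All 22 genes were lower in laying hens under each alternative run (330 of 330 values, log2 fold changes between -7.57 and -0.90), and so were the 16 other genes of the pathway (240 of 240), a direction that the choice of genes fixes. Over all genes, 623 passed both thresholds, and 966 with DESeq2, 7022 with limma on log2(RPKM + 0.1), 3845 with limma on log2(RPKM + 1), 7907 without scaling and 939 without a threshold on the fold change. Leaving out 1 hen gave 16 to 639 genes over all, 0 to 21 of the 22 genes and 0 to 35 of the pathway genes, where the full fit had 20 and 32. The low ends of these ranges came without laying hen 1 or 2. Without scaling, the median log2 fold change of the 22 genes was -4.94, that of all genes was -1.80 and the difference of these medians was -3.14. Without scaling the median log2 CPM of the 22 genes was -0.60, -0.72 and -0.29 in the laying birds and 3.84 in non-laying hen 3. With scaling that left out the 20 most abundant genes it was 1.84, 1.26 and 1.77 in the laying against 5.26, 4.96 and 3.68 in the non-laying birds. This is an equal offset in every hen, because these scaling factors were not centred on 1. The median log2 fold change of the 22 genes stayed at -3.33 with this scaling. As a mean on the TMM scale, the log2 CPM of the 22 genes was 0.081 in laying hen 1. The 22 genes minus the mitosis genes came to 0.47 in laying hen 1 by means, to 0.49 and 0.59 in laying hens 1 and 2 on log2(RPKM + 0.1), and to -0.73 in non-laying hen 1 with all named replication genes. In non-laying hen 1 the sign turned, to 0.075 by means and 0.45 on log2(RPKM + 0.1). Apart from the constructions named, the cause of these shifts was not tested.

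The study describes no pairing of hens by replicate number. The deviations of hens with the same number correlated at 0.18, -0.07 and 0.03, and those of hens with different numbers at -0.16 to 0.13. With 3 hens per group these values cannot decide whether hens were paired. With the replicate number as a block, 397 genes passed over all, 13 of the 22 genes and 19 of the pathway genes. Depth limits the values in laying hens, where most of the 22 genes had few counts.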
